A study of Mus musculus with 346 samples.

Results

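Most of the genes described here encode subunits of the respiratory chain and of the ATP synthase. The rule that picks them uses names and no measured value: every row named mt-Nd, mt-Co, mt-Atp or mt-Cytb, Nduf followed by a, b, c, s or v, Sdha to Sdhd, Uqcr, Cox4 to Cox8, or Atp5. The rule found 97 of the 20474 genes in the table, 8 of them encoded in the mitochondrial genome and 89 in the nucleus. The mitochondrial genes mt-Co2, mt-Co3, mt-Atp8, mt-Nd3 and mt-Nd4l are not among them. Mitochondrial shares and ratios below therefore cover the 8 members found, not all subunits that genome encodes. By complex the nuclear members were 37 for complex I, 4 for complex II, 10 for complex III, 18 for complex IV and 20 for complex V, and the mitochondrial ones 5, 0, 1, 1 and 1. Among the nuclear members 8 are processed pseudogenes. Atp5s and Cox7a2l are assembly or regulatory factors and not subunits, and they are kept in the counts and medians below. That leaves 87 subunit genes. Ndufa4 and Ndufa4l2 are counted with complex IV, where their proteins are now placed.

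The respiratory chain sits in the inner mitochondrial membrane. Complex I (NADH dehydrogenase) and complex II (succinate dehydrogenase) take electrons from fuels, complex III (cytochrome bc1) hands them to cytochrome c, and complex IV (cytochrome c oxidase) passes them to oxygen. Complexes I, III and IV pump protons, and complex V, the ATP synthase, makes ATP from the gradient. Complex II is encoded in the nucleus alone, while the other complexes are built from the products of both genomes. Heart and liver are known as organs rich in mitochondria.

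Single cells came from mouse embryos of the Tg(Prox1-EGFP) line, in which a green fluorescent protein marks cells that use Prox1, a regulator of early liver and pancreas. All groups carried the transgene, and only cells positive for the protein were sorted. They were 82 foregut cells at embryonic day (E) 8.5 (plate 1A), 86 dorsal pancreatic bud cells at E10.5 (48 on plate 2A and 38 on plate 2B), 27 ventral pancreatic bud cells at E10.5 (plate 3), 78 liver bud cells at E10.5 (plate 5A), and 73 pancreas cells at E14.5 (plate 4A). The labels name no animal, so each plate counts as 1 sample, tests were left out, and the SDs given are the spread between cells. Only the dorsal bud had more than 1 plate, so elsewhere plate and tissue cannot be told apart.

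The liver plate was split by Afp, the fetal serum protein of hepatoblasts, at a log2 level of 10, and the E14.5 plate by Col1a1, the type I collagen gene, at 5. Of the liver cells 46 had Afp (lowest 11.60, here called Afp-high) and 32 did not (highest 6.57, Afp-low). Of the E14.5 cells 58 had Col1a1 (lowest 8.47, Col1a1-high) and 15 had none (0 in each, Col1a1-low). Other markers were read against these labels, counting cells with at least 3 of a list. All 46 Afp-high cells had 3 or more of 8 hepatoblast markers. Among the 32 Afp-low cells only 1 did, while 20 had mesenchyme and 12 had cardiac markers. The E14.5 plate is labelled as epithelium, yet all 58 Col1a1-high cells had mesenchyme markers and 0 had 3 epithelial ones. Of its 15 Col1a1-low cells 13 had epithelial and 12 endocrine markers. In the plate labelled as foregut endoderm 61 of 82 cells had neural, 12 epithelial and 11 cardiac markers. The dorsal bud had epithelial markers in 43 of 48 cells on plate 2A and in 24 of 38 on plate 2B, where 14 had mesenchyme markers. In the ventral bud all 27 cells had epithelial and 17 had hepatoblast markers.

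Levels are log2(normalized reads + 1), with cells that lack a read set to 0, and detection of a gene means at least 5 normalized reads in that cell. Median reads per cell ran from 760738 in Col1a1-low to 2657340 in Afp-high cells. Median genes per cell ran from 2978 in Afp-low to 6548.5 in foregut cells. Normalized reads did not sum to the same total in each cell. Median totals ran from 1017710 in Col1a1-low to 1705220 in Afp-high cells, with 1362920 in Afp-low and 1052940 in dorsal bud cells. Differences of level between liver and dorsal bud therefore include this difference in totals, which shares of reads do not. Fewer genes found per cell lower the mean of many genes at once, so the median difference of all genes stands beside each comparison. That median runs over the 8521 genes with a mean level of at least 1 over all cells, which took in 76 nuclear and 7 mitochondrial members. The 8521 genes were not matched to the members in level or detection. The 76 nuclear members had a median detection of 91.9% of all cells. The 14 members left out were the 8 pseudogenes, Atp5l, Cox6a2, Cox6b2, Cox7a1, Ndufa4l2 and mt-Atp6. Near-identical copies elsewhere in the genome (at least 95% identity over at least 50% of the transcript) were found for 18 members, and exons that touch another gene for 36, so some of their reads may be shared. Among the nuclear members described below, 8 touch another gene, by 2.92% (Ndufa4l2) to 19.7% (Uqcrc2) of their exon bases, and none has such a copy.

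Stretches of DNA before the start of 4 members described below are shown. Sdhb and Sdhd, subunits of complex II, are among the largest differences in liver. Cox7a1 (heart and muscle) and Cox7a2 (most tissues) are complex IV isoforms. The relation of these stretches to the levels was not tested. Each is the longest stretch of the 250 bases before the RefSeq start (GRCm38.p6) that no annotated exon covers, written 5′ to 3′ on the strand of the gene. Capitals mark CCGGAA or its reverse complement TTCCGG, the core read by ETS factors such as the nuclear respiratory factor Gabpa.
Sdhb, chr4:140961021-140961202, plus strand: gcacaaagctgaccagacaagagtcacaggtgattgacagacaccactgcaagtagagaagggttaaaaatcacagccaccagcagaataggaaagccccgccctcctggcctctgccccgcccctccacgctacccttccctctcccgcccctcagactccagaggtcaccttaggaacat
Sdhd, chr9:50603850-50603909, minus strand: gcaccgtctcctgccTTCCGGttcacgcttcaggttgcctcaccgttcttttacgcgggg
Cox7a1, chr7:30183921-30184143, plus strand: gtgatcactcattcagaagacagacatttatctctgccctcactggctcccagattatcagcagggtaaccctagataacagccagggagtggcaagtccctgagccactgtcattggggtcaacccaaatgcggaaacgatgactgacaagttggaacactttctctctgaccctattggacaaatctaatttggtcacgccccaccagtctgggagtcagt
Cox7a2, chr9:79759879-79760103, minus strand: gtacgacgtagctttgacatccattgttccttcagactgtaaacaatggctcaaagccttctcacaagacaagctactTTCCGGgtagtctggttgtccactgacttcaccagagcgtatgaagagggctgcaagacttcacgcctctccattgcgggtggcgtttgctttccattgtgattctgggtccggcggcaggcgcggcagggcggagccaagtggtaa

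Sdhd and Cox7a2 hold the ETS core in these stretches, and Sdhb and Cox7a1 do not. Of the 89 nuclear members 66 had a window of 250 bases. The ETS core (both strands) lay in 19 of these 66 (28.8%) and in 3315 of the 27025 windows of all genes (12.3%). The core read by the factor Nrf1, GCGC followed by any 2 bases and GCGC again (both strands, able to share at most 1 end base with CCGGAA), lay in 13 of 66 (19.7%) against 1383 of 27025 (5.12%). By complex the ETS core lay in 8 of 31 windows for complex I, 1 of 3 for II, 3 of 5 for III, 3 of 12 for IV and 4 of 15 for V. The Nrf1 core lay in 7, 2, 0, 1 and 3 of the same windows. These are matches of letters only.

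As a share of each cell's reads, the nuclear members took between 1.43% and 2.61% on average, and the mitochondrial members between 0.605% and 2.90%. The nuclear share was 2.61 ± 0.53% in Afp-high liver cells (lowest 1.98%, median 2.54%, highest 5.07%, n = 46) and 2.2 ± 0.53% in Afp-low ones (1.53, 2.02 and 3.40%, n = 32). It was 1.84 ± 0.44% in the foregut (n = 82), 1.43 ± 0.31% and 1.70 ± 0.26% on dorsal plates 2A and 2B, and 1.87 ± 0.39% in the ventral bud (n = 27). At E14.5 it was 1.57 ± 0.33% in Col1a1-high (n = 58) and 1.81 ± 0.34% in Col1a1-low cells (n = 15). Liver cells of both kinds thus held the highest nuclear shares, but their ranges overlapped those of the other groups.

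**Figure D1:**
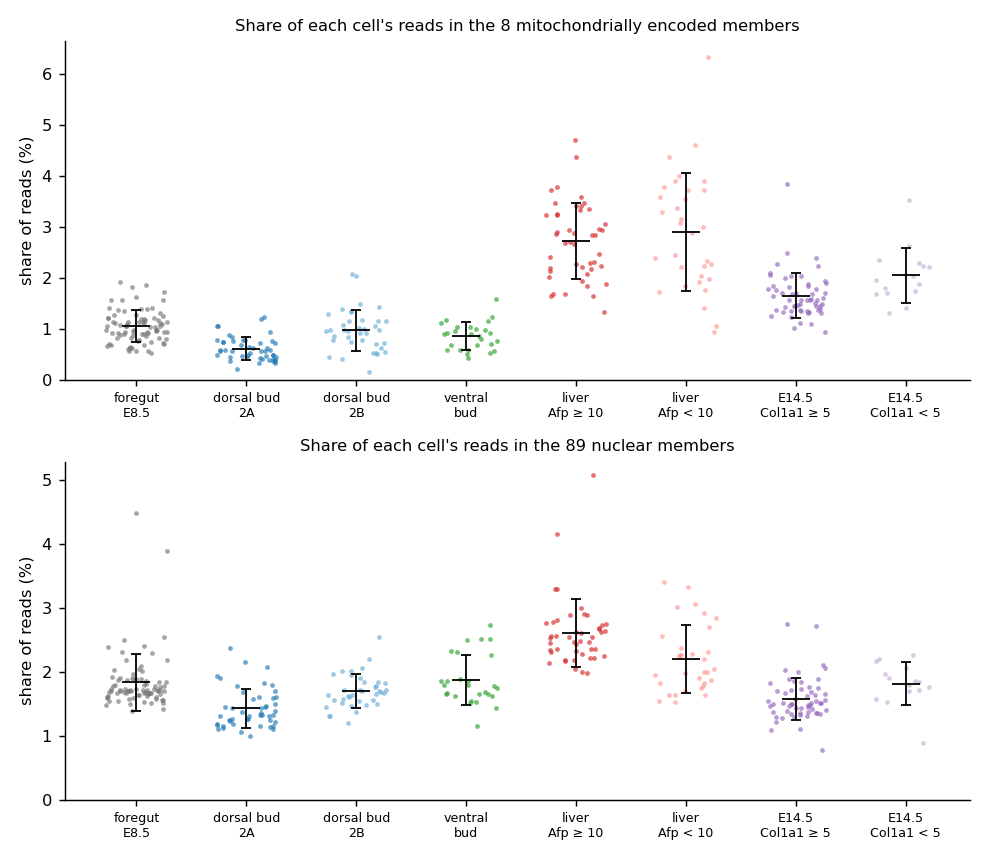
Share of each cell's reads (percent, linear axis) in the 8 mitochondrially encoded members (top) and the 89 nuclear members (bottom), by plate and subgroup. Points are cells and bars are the mean and SD over cells. Both liver subgroups have the highest means in both panels, and in both panels their cells overlap those of other groups.

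The mitochondrial share moved more. It was 2.72 ± 0.75% in Afp-high (1.33, 2.77 and 4.71%) and 2.90 ± 1.16% in Afp-low liver cells (0.924, 2.94 and 6.34%), against 0.605 ± 0.228% on plate 2A and 0.969 ± 0.404% on plate 2B. The foregut had 1.05 ± 0.31% and the ventral bud 0.854 ± 0.267%. At E14.5 it was 1.65 ± 0.44% in Col1a1-high and 2.05 ± 0.54% in Col1a1-low cells. Afp-low liver cells, most of which are not hepatoblasts by their markers, thus spanned the whole range of mitochondrial shares of Afp-high ones. For each nuclear read there were 0.441 ± 0.182 mitochondrial reads on plate 2A and 0.586 ± 0.269 on plate 2B. There were 0.580 ± 0.177 in the foregut, 0.485 ± 0.207 in the ventral bud, 1.07 ± 0.32 in Afp-high, 1.36 ± 0.57 in Afp-low, 1.07 ± 0.26 in Col1a1-high and 1.19 ± 0.49 in Col1a1-low cells.

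Within a plate the shares of both genomes were not tied in 1 direction. Across cells Pearson's r was 0.29 in the foregut, 0.02 on plate 2A, -0.12 on plate 2B, -0.39 on the ventral plate, 0.12 on the liver plate and 0.42 at E14.5. Spearman's rho was 0.32, -0.10, 0.03, -0.47, 0.23 and 0.29. Both shares are parts of the same library, and cells of a plate are not replicates, so these are descriptions without a test.

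By complex, complex V took the largest nuclear share in 3 of the 8 groups named above and complex I in the rest. Complex I subunits took 0.960 ± 0.217% of reads in Afp-high cells, against 0.419 ± 0.099% on plate 2A and 0.499 ± 0.098% on plate 2B. The ATP synthase genes took 0.733 ± 0.189% against 0.522 ± 0.162% and 0.638 ± 0.115%. Complex III took 0.373 ± 0.107% against 0.145 ± 0.044% and 0.171 ± 0.042%, complex IV 0.356 ± 0.113% against 0.257 ± 0.065% and 0.289 ± 0.067%, and complex II 0.185 ± 0.086% against 0.086 ± 0.030% and 0.103 ± 0.036%. Complex III thus showed the widest ratio between Afp-high liver and either dorsal plate, and complexes IV and V the narrowest.

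Per kilobase of exon, mt-Cytb, the mitochondrial subunit of complex III, had the highest level of all genes in the table, with 9087 normalized reads per kilobase over all cells. The complex I gene mt-Nd1 followed with 3772, and mt-Co1, the catalytic subunit of complex IV, ranked 5 with 2140.1. Among nuclear members the highest were Cox6b1 with 629.7, Ndufa2 with 571, Cox4i1 with 485, Uqcr10 with 483 and Atp5b, the catalytic beta subunit of the ATP synthase, with 479.9. mt-Atp6, a membrane subunit of complex V, was listed at 5 or more normalized reads in 1 of 346 cells. A nuclear gene, Gm10925, matches it over 99.6% of its length at 100% identity and was itself near 0, with a mean of 0.02. How reads that match both were counted is not given, so the level of mt-Atp6 is not read here.

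mt-Cytb and mt-Co1 did not move together. mt-Cytb had a lowest, median and highest level of 12.96, 14.66 and 15.89 in Afp-high cells, against 8.06, 10.94 and 12.11 on plate 2A and 9.26, 11.72 and 12.85 on plate 2B. At these levels the lowest Afp-high cell was above every dorsal cell. As a share of reads the groups overlapped, with mt-Cytb at 0.662% in the lowest Afp-high cell and 0.726% in the highest dorsal cell. The mean level of mt-Cytb was 14.62 ± 0.66 against 11.21 ± 0.79 in the whole dorsal bud (n = 86), a difference of 3.41. mt-Co1 ran through 9.65, 12.06 and 13.40 in Afp-high cells and through 7.94, 11.19 and 12.39 in the dorsal bud, so the groups overlapped. Its mean difference was 0.83 (11.93 ± 0.77 against 11.10 ± 0.71).

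Within each cell, the log2 ratio of mt-Cytb to mt-Co1 was -0.27 ± 0.60 on plate 2A, where 19 of 48 cells had more mt-Cytb than mt-Co1. It was 0.61 ± 0.48 on plate 2B (34 of 38 cells), 1.08 ± 0.47 in the foregut (82 of 82) and 1.06 ± 0.81 in the ventral bud (25 of 27). It reached 2.69 ± 0.70 in Afp-high and 2.54 ± 1.00 in Afp-low liver cells (46 of 46 and 32 of 32). At E14.5 it was 1.08 ± 0.62 in Col1a1-high (55 of 58) and 1.35 ± 0.51 in Col1a1-low cells (15 of 15). A ratio within a cell does not depend on how the cells were scaled, and it shows an unequal difference, not which of the genes differed. mt-Co1 also has a nuclear copy in the table, Gm13340, at 97.6% identity with a mean level of 0.38. As a share of reads from the 8 mitochondrial members, mt-Co1 took 38.5 ± 7.4% on plate 2A and 22.9 ± 5.3% on plate 2B, but 9.31 ± 3.22% in Afp-high cells, while mt-Cytb took 32.3 ± 7.5%, 34.4 ± 5.1% and 56.3 ± 7.5%.

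**Figure D2:**
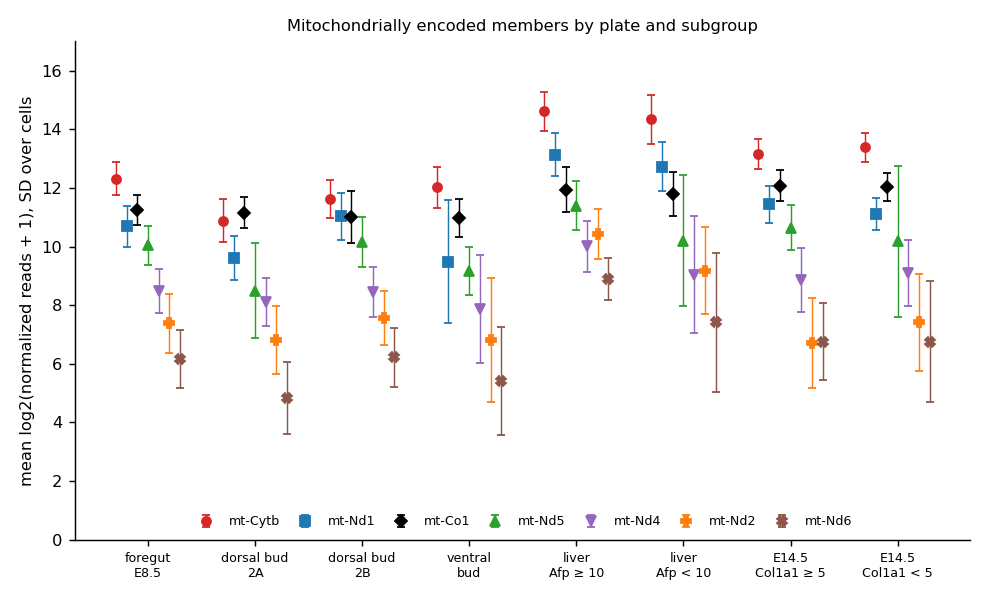
Mean level (log2(normalized reads + 1)) of 7 mitochondrially encoded members by plate and subgroup. Bars are the SD over cells. mt-Cytb stands 3.41 higher in Afp-high liver cells than in the dorsal bud and mt-Co1 0.83 higher, where normalized totals were also larger in Afp-high cells. mt-Cytb stands above mt-Co1 in every group but plate 2A, plate 2B included.

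The complex I genes of the mitochondrial genome differed between Afp-high liver and dorsal bud by 3.44 for mt-Nd6, 3.29 for mt-Nd2, 2.90 for mt-Nd1, 2.18 for mt-Nd5 and 1.74 for mt-Nd4. mt-Nd6 is the only one of them read from the light strand, and its mean was 8.88 ± 0.72 against 5.45 ± 1.32. Between dorsal plates 2B and 2A they differed by 1.65 for mt-Nd5, 1.43 for mt-Nd1, 1.39 for mt-Nd6, 0.74 for mt-Nd2 and 0.33 for mt-Nd4. The plates of 1 tissue thus differed by an amount that is large beside several of these liver differences.

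Within the liver plate, most tested nuclear members of complexes I, II and III were higher in Afp-high than in Afp-low cells. A gene is counted as higher or lower here at a difference of mean levels of 1 or more. Of 76 nuclear members 49 were higher and 0 lower, with a median difference of 1.61, while 36.6% of all 8521 genes were higher, 7.11% lower and their median was 0.56. Of the 7 mitochondrial members 3 were higher, with a median of 0.96, or 0.61 with cells scaled to total reads. As a share of reads the mitochondrial members took 2.72% in Afp-high and 2.90% in Afp-low cells. Their share was thus not higher in Afp-high cells. The medians were 1.90 for complex I (25 of 35 higher), 2.11 for complex II (3 of 4) and 2.05 for complex III (7 of 8), against 0.96 for complex IV (6 of 13) and 0.82 for complex V (8 of 16). Complexes IV and V thus lay nearer to the median of all genes.

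Within complex I the 7 core subunits made in the nucleus, which as a set hold the flavin and iron-sulfur clusters, were all higher in Afp-high cells, between 2.06 and 3.96 with a median of 3.44. The accessory subunits had a median of 1.72, with 18 of 28 higher. Ndufs7, a core subunit near the site of ubiquinone reduction, was 7.35 ± 3.33 in Afp-high and 3.39 ± 4.11 in Afp-low cells, and was detected in 39 of 46 and 13 of 32. The accessory subunit Ndufa6 had a lowest, median and highest level of 5.83, 9.32 and 11.18 in Afp-high and of 0, 6.69 and 9.57 in Afp-low cells, a mean difference of 3.67. All Afp-high cells had Ndufa6, and the groups overlapped.

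These differences mix how many cells had a gene with how much they had. The log2 ratio of linear means, which gives cells at 0 less weight, left 19 of 76 nuclear members higher, with a median of 0.61, while 30.1% of all genes were higher and their median was 0.28. On that scale the share of members higher was not above that of all genes. The Afp-low cells also differ among themselves. Their summed mesenchyme marker levels ran from 5.48 to 67.5 (0 to 7.70 in Afp-high cells) and their cardiac ones from 0 to 75.8 (0 to 10.6). The 12 Afp-low cells with cardiac markers had a nuclear share of 2.60 ± 0.63% against 1.96 ± 0.26% in the other 20. Set against 11 mesenchyme-marked cells without cardiac markers, the 12 cardiac-marked cells and the 9 with neither, Afp-high cells differed by a nuclear median of 1.57, 1.10 and 1.74, where all genes had medians of 0.50, 0.73 and 0.62. The nuclear members were thus nearest to all genes in the comparison with cardiac-marked cells. The part of cell type in the difference was not tested further.

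Against the dorsal bud, more genes were lower than higher in Afp-high liver cells, whereas more nuclear respiratory chain members were higher than lower. Of 76 nuclear members 42 were higher and 3 lower, with a median of 1.27, while 13.6% of all genes were higher, 48.3% lower and their median was -0.95. Of the 7 mitochondrial members 6 were higher, with a median of 2.90. The split depended on how cells were scaled. It was 30 higher and 6 lower with cells scaled to total reads, where the nuclear median was 0.62 and that of all genes -1.14. With median-of-ratios factors it was 23 and 9, where 6.74% of all genes were higher and 59.6% lower. The nuclear median was then 0.22 and that of all genes -1.29. With the ratio of linear means the nuclear median was 1.56 and that of all genes turned to 0.35. By complex the medians were 1.56 for I (24 of 35 higher), 1.00 for II, 1.89 for III (5 of 8), 0.94 for IV (5 of 13) and 0.83 for V (6 of 16).

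**Figure D3:**
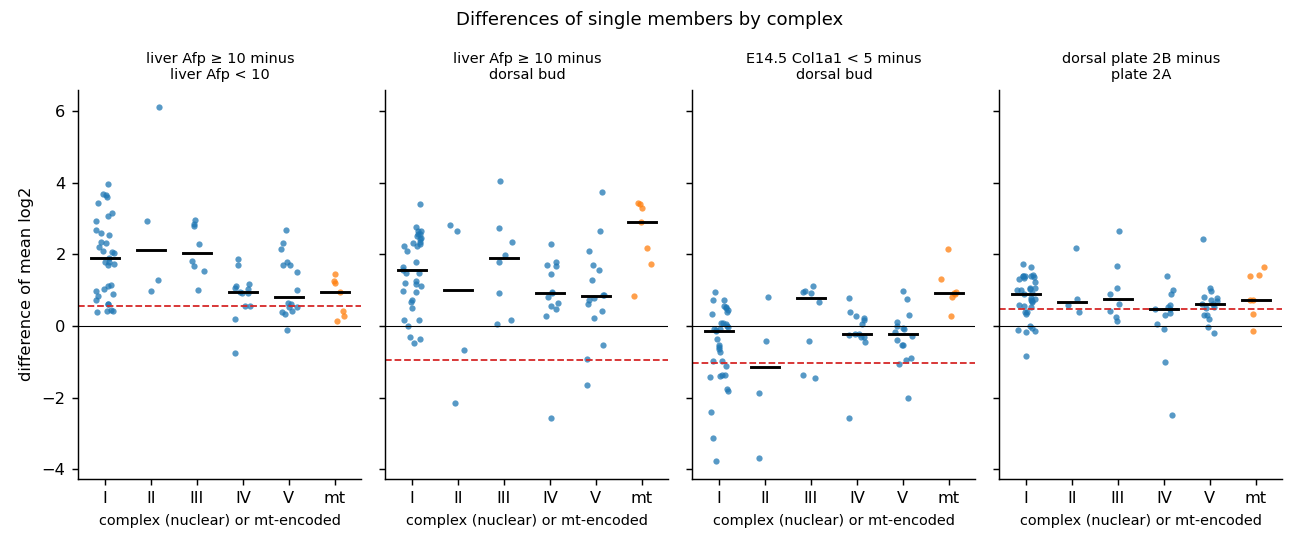
Difference of mean level (log2) for each tested member in 4 comparisons, by complex for nuclear members and together for mitochondrial ones. Points are members, black lines the median of each set and red dashed lines the median of all 8521 genes; in Afp-high liver against dorsal bud the members lie mostly above the line at -0.95.

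Uqcrq, a small subunit of complex III, had a lowest, median and highest level of 7.31, 9.42 and 11.12 in Afp-high cells and of 0, 6.18 and 8.16 in dorsal bud cells, a mean difference of 4.05. Its ranges overlapped only between 7.31 and 8.16. Atp5g1, a gene for the rotating c ring of the ATP synthase, ran through 8.01, 9.85 and 11.69 against 0, 6.94 and 8.83, a difference of 3.74. The complex I subunit Ndufb10 was 9.45 ± 0.87 against 6.03 ± 2.57, detected in all 46 Afp-high and 74 of 86 dorsal cells. At the other end, Cox4i2, the hypoxia-linked isoform of complex IV subunit 4, was 2.58 lower and was detected in no Afp-high cell. Atp5d, the delta subunit of the ATP synthase, was 6.42 ± 3.62 against 8.07 ± 1.06, detected in 36 of 46 and 86 of 86 cells. In the cells that had Atp5d its level was 8.15 ± 1.67 against 8.07 ± 1.06, and the ratio of linear means gave 0.023 in place of -1.65. The difference in Atp5d therefore lies in how many cells it was detected in.

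The 4 subunits of complex II differed in the same direction in some comparisons and not in others. All 4 were above 0 in Afp-high against Afp-low liver (0.99 to 6.11), in foregut against dorsal bud (0.39 to 1.54) and on plate 2B against 2A (0.40 to 2.17), but they ran from -2.16 to 2.84 in Afp-high liver against dorsal bud. Of all 8521 genes, 5994, 6183, 5968 and 2281 were above 0 in these comparisons, in the same order. The shared direction was thus also that of most genes. Sdha carries the flavin and oxidizes succinate, Sdhb holds the iron-sulfur clusters, and Sdhc and Sdhd anchor the enzyme in the membrane. Sdhd (chr9:50596357-50603812, minus strand, GRCm38), whose upstream stretch is shown above, differed most between Afp-high and Afp-low liver of all tested members, by 6.11. Its lowest, median and highest levels were 0, 9.68 and 11.64 in Afp-high and 0, 0 and 9.90 in Afp-low cells. It was detected in 44 of 46 Afp-high cells (95.7%, exact 95% interval 85.2 to 99.5%) and in 11 of 32 Afp-low cells (34.4%, 18.6 to 53.2%). These Clopper-Pearson intervals cover counting error only. In the cells that had Sdhd its level was 9.43 ± 1.15 and 8.05 ± 1.75. Most Afp-high cells were thus high for Sdhd and in most Afp-low cells it was not detected, with overlap at both ends. Among Afp-low cells it was found in 3 of 11 with mesenchyme but not cardiac markers, 4 of 12 with cardiac markers and 4 of 9 with neither. Sdhd was 6.35 ± 2.39 in the dorsal bud and 7.53 ± 1.24 in the foregut, where it was detected in 78 of 86 and 81 of 82 cells.

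The other anchor subunit, Sdhc (chr1:171127165-171150603), was lower in Afp-high liver than in the dorsal bud by 2.16, while Sdhb was higher by 2.84 and Sdhd by 2.67. Sdhc had a lowest, median and highest level of 0, 6.45 and 11.13 in Afp-high and of 0, 7.46 and 9.22 in dorsal cells. It was detected in 27 of 46 cells (58.7%, exact interval 43.2 to 73%) against 80 of 86 (93.0%, 85.4 to 97.4%). In the cells that had it the level was 8.03 ± 1.67 against 7.45 ± 0.89, and the ratio of linear means turned the direction to 0.37. Sdhc was thus not detected in some Afp-high cells, and where detected its level was near that of dorsal cells. Fewer genes were found per Afp-high cell (median 3898.5 against 5637 in the dorsal bud), and the part of missed reads was not tested. Sdhb was 9.60 ± 2.47 in Afp-high, 8.61 ± 3.44 in Afp-low and 6.76 ± 2.59 in dorsal cells. The dorsal plates themselves differed in Sdhb by 2.17 (7.97 ± 1.05 on 2B against 5.80 ± 3.02 on 2A).

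Sdha was detected in all 86 dorsal cells at 8.23 ± 1.46 and in 81 of 82 foregut cells at 8.62 ± 1.50. It was found in 39 of 46 Afp-high cells (7.57 ± 3.75), 16 of 32 Afp-low cells (4.64 ± 4.80), 38 of 58 Col1a1-high cells (6.0 ± 4.53) and 9 of 15 Col1a1-low cells (4.53 ± 4.18). Where fewer cells had Sdha the spread was wide, and the highest cell of each of these groups was at 10.04 or above.

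**Figure D4:**
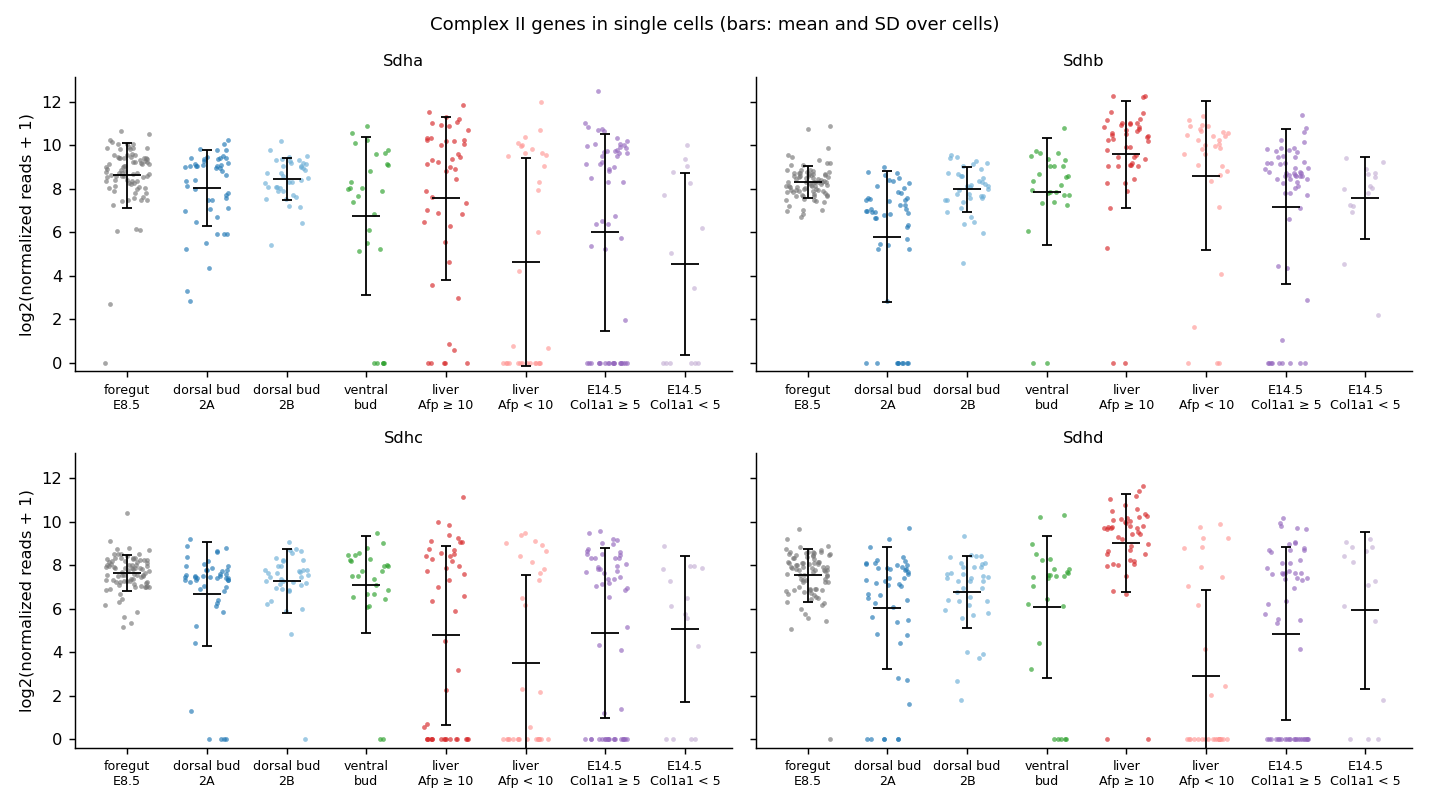
Level (log2(normalized reads + 1)) of the 4 complex II subunits in every cell, by plate and subgroup, with the mean and SD over cells. Sdhd is at 0 in most Afp-low liver cells, and Sdhc is detected in 27 of 46 Afp-high cells.

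In the ventral bud, nuclear members had a higher median against the dorsal bud than all genes, which were not matched to them in level. Of 76 nuclear members 9 were higher and 11 lower, with a median of 0.18. Of all genes 3.70% were higher and 38.4% lower, with a median of -0.73. With median-of-ratios factors the split was 3 higher and 16 lower, where 2.78% of all genes were higher and 44.5% lower. The nuclear median was then -0.20 and that of all genes -0.88. None of the 7 mitochondrial members differed by 1, and their median was -0.13. Among the 9 higher were 6 accessory subunits of complex I, the largest differences being Ndufb10 by 1.86 (7.89 ± 1.97 against 6.03 ± 2.57), Ndufb7 by 1.59 and Ndufa8 by 1.30, and the c-ring gene Atp5g1 was higher by 1.43. Among the 11 lower were Ndufs1, the largest core subunit of complex I, by 2.74 (3.17 ± 3.72 against 5.91 ± 3.22, detected in 11 of 27 and 68 of 86 cells), Atp5d by 1.75 and the complex III core protein Uqcrc2 by 1.43. Sdha was lower by 1.49 (22 of 27 cells against 86 of 86), but in the cells that had it the level was 8.28 ± 1.72 against 8.23 ± 1.46, and the ratio of linear means was 0.051. Under that ratio 0 of the 76 members were lower by 1 (16% of all genes), and the median of all genes was 0.010 in place of -0.73. Against dorsal cells with epithelial and without mesenchyme markers 7 members were lower (32% of all genes). The 17 ventral cells with hepatoblast markers had a nuclear share of 2.01 ± 0.40% against 1.62 ± 0.20% in the other 10.

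The foregut at E8.5 was compared with the dorsal bud at E10.5, so age and tissue differ together. Of 76 nuclear members 19 were higher and 1 lower, with a median of 0.61, while 30.9% of all genes were higher, 6.90% lower and their median was 0.55. Both genomes thus stood near the general shift (mitochondrial median 0.46, 1 of 7 higher). The core subunit Ndufs8 was higher by 1.99 (6.79 ± 1.68 against 4.80 ± 3.00), Uqcrq by 1.91, Atp5g1 by 1.79 and Ndufa1, a small complex I subunit, by 1.79. Only Cox4i2 was lower, by 1.93. The count of higher members was 36 against plate 2A alone, where 41.4% of all genes were higher, and 2 against plate 2B alone, where 19% were, so both turned on the dorsal plate chosen.

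The 2 dorsal plates hold cells of 1 tissue and age. Plate 2B had 24 nuclear members higher than plate 2A and 1 lower, with a median of 0.69, while 29% of all genes were higher, 6.95% lower and their median was 0.48. Of the 7 mitochondrial members 3 were higher, with a median of 0.74. Uqcrq was 6.83 ± 0.70 on 2B, in 38 of 38 cells, and 4.19 ± 2.78 on 2A, in 34 of 48. Atp5g1 was 7.45 ± 0.78 against 5.02 ± 2.81. These genes and Sdhb are also among those that differed most between liver and dorsal bud, and the shift between dorsal plates shows how much plates can differ without a difference in the labels. Summed mesenchyme marker levels had a median of 14.1 on 2B (0 to 42.3) and 7.84 on 2A (0 to 30.9), and their part in the result was not tested. Cells on 2A also varied more: the median SD of the 76 members was 1.87 against 0.93, and 11 against 47 members were detected in every cell.

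At E14.5, Col1a1-high cells were set against Col1a1-low cells. Of 76 nuclear members 2 were higher and 16 lower, with a median of -0.42, while 16.9% of all genes were higher, 25% lower and their median was -0.11. None of the 7 mitochondrial members differed by 1 and their median was 0.01. Uqcrfs1, the Rieske iron-sulfur protein of complex III, had a lowest, median and highest level of 0, 0.79 and 10.69 in Col1a1-high and of 0, 8.85 and 10.15 in Col1a1-low cells, a difference of -4.40. It was detected in 28 of 58 and 14 of 15 cells, and the ranges overlapped throughout. Ndufa6 was lower by 2.81 (33 of 58 cells against 15 of 15), Cox5a, a matrix-side subunit of complex IV, by 1.73, and Uqcr11 by 1.58. Ndufv3, an accessory subunit of the module that takes up NADH, ran the other way, 6.44 ± 3.07 against 3.37 ± 3.14, as did Sdha by 1.47. The count of lower members ranged from 1 with the ratio of linear means (15.8% of all genes lower) to 27 with a pseudocount of 0.1 (33.9%).

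Against the dorsal bud, Col1a1-low cells had 1 nuclear member higher and 17 lower, with a median of -0.20, while 5.88% of all genes were higher, 51.2% lower and their median was -1.03. Scaled without mitochondrial reads the split was 4 and 17, a setting for which the shares of all genes were not counted. With median-of-ratios factors it was 0 and 20, where 5.05% of all genes were higher and 55.7% lower. Of the 7 mitochondrial members 2 were higher, mt-Cytb by 2.17 and mt-Nd6 by 1.30, with a median of 0.94. Ndufv3 was lower by 3.77, Sdha by 3.70, Ndufs1 by 3.14 and Cox4i2 by 2.58. Uqcr10, a small complex III subunit, was higher by 1.11 (7.82 ± 1.09 against 6.71 ± 1.25). Complex III had a median of 0.79 and complex II of -1.16, the highest and lowest of the 5 complexes.

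Several complex IV subunits come as isoforms of different tissues or oxygen supply. Cox4i1, the common form of subunit 4, was detected in all cells but 1, with means between 8.73 ± 1.68 and 9.83 ± 0.86. Its counterpart Cox4i2 (chr2:152754173-152765037) was detected in 27 of 48 cells on plate 2A (56.2%, exact interval 41.2 to 70.5%), 9 of 38 on plate 2B (23.7%, 11.4 to 40.2%) and 9 of 27 in the ventral bud. It was found in 11 of 82 foregut, 3 of 32 Afp-low and 4 of 58 Col1a1-high cells. It was found in 0 of 46 Afp-high cells, which allows a share of up to 6.52% (3 cells of the group, here for counts of 0 in place of the exact interval), and in 0 of 15 Col1a1-low cells, up to 20%. Cox4i2 was thus most often found in the pancreatic buds, more on 1 dorsal plate than on the other.

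Ndufa4l2 (chr10:127514967-127517154), the hypoxia-linked relative of the complex IV subunit Ndufa4, was found in 27 of 48 cells on 2A and 11 of 38 on 2B (28.9%, 15.4 to 45.9%). Elsewhere it was found in 2 foregut, 4 Afp-low and 1 Col1a1-high cells. The ventral bud had none in 27 cells, which allows up to 11.1%. On plate 2A, 18 cells had both Cox4i2 and Ndufa4l2, 9 had each alone and 12 had neither. On plate 2B no cell had both, 9 had Cox4i2 alone and 11 Ndufa4l2 alone. Ndufa4l2 was above Ndufa4 in level in 12 of 48 cells on 2A and in 0 of 38 on 2B. Ndufa4 itself was 7.16 ± 0.94 on 2A and 8.17 ± 0.52 on 2B, against 9.28 ± 0.79 in Afp-high liver. On 2A, Cox4i2 was in 5 of 14 cells with endocrine markers and 22 of 34 without, and on 2B in 0 of 9 and 9 of 29. Ndufa4l2 was in 7 of 14 and 20 of 34 on 2A, and in 5 of 9 and 6 of 29 on 2B, so its shares by endocrine markers were close on 2A and apart on 2B, in small counts that were not tested.

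**Figure D5:**
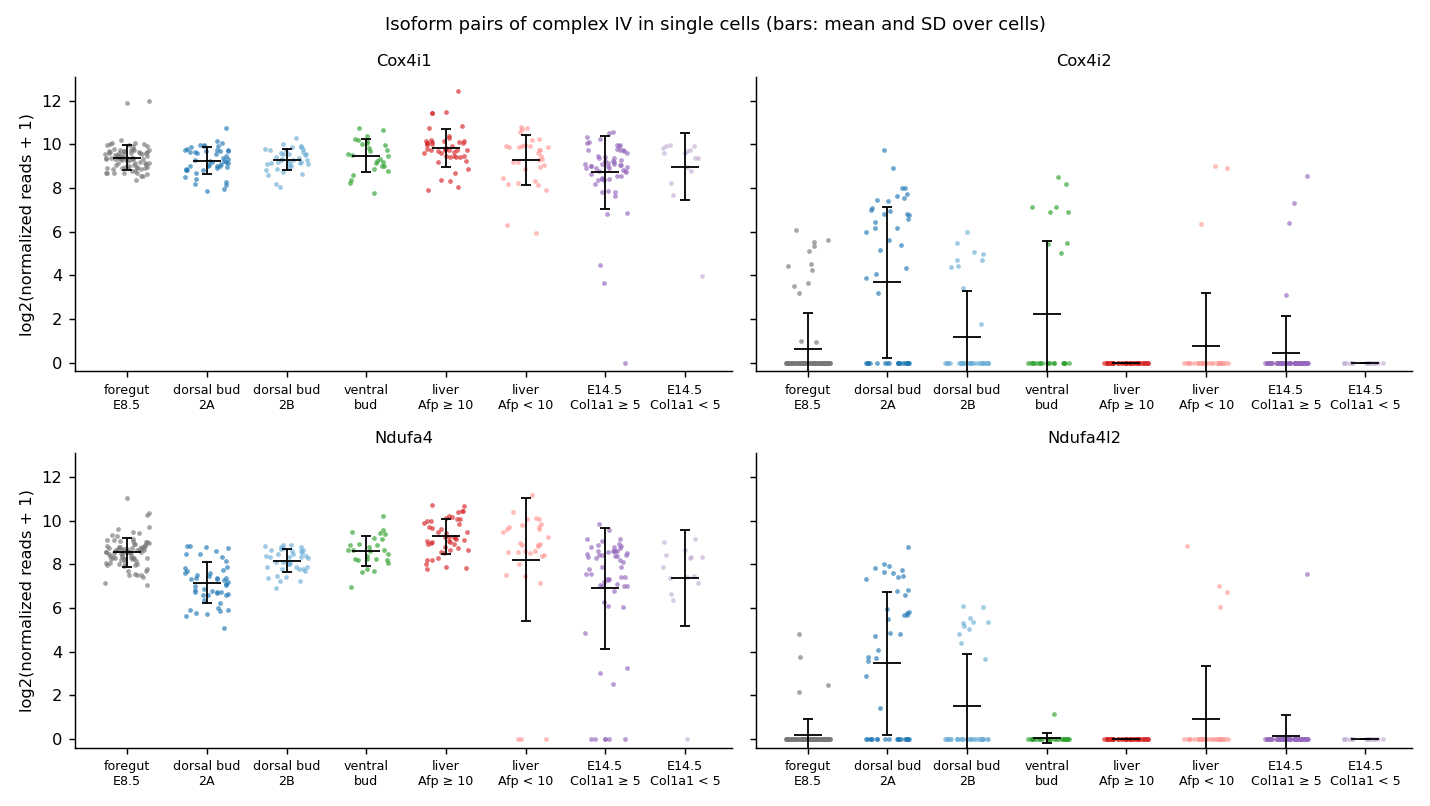
Level (log2(normalized reads + 1)) of Cox4i1, Cox4i2, Ndufa4 and Ndufa4l2 in every cell, by plate and subgroup, with the mean and SD over cells. Cox4i2 and Ndufa4l2 are found mainly on the dorsal plates (27 of 48 cells each on 2A), and neither is found in an Afp-high liver cell.

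The heart and muscle isoforms were found most often in foregut cells with cardiac markers. Cox7a1, whose upstream stretch is shown above beside that of Cox7a2, was found in 17 of 82 foregut cells (20.7%, 12.6 to 31.1%): 9 of the 11 with cardiac markers and 8 of the 71 without. Cox6a2 was found in 4 cells in all, each among those 11. Of the 12 Afp-low liver cells with cardiac markers only 2 had Cox7a1 and 0 had Cox6a2. Cox7a1 was also found in 4 ventral, 4 dorsal, 1 Afp-high and 1 Col1a1-high cells, and no test was made of its relation to cardiac markers. Cox6b2, known as the testis form of subunit 6b, was found in 14 of 58 Col1a1-high cells (24.1%, 13.9 to 37.2%), 8 of 38 on 2B, 10 of 82 in the foregut and at most 3 cells of any other group. The 11 cardiac-marked foregut cells had a nuclear share of 1.96 ± 0.30% against 1.82 ± 0.46% in the other 71. The foregut cells with the highest shares, 4.49% and 3.89%, had 0 cardiac markers.

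Genes that serve the chain were read from lists of names. Between Afp-high and Afp-low liver, 70 of 77 mitochondrial ribosome genes were higher and 0 lower (median 2.46), as were 12 of 13 citrate cycle genes (2.39), 24 of 40 assembly factors (1.10), 9 of 16 genes for mitochondrial DNA and RNA upkeep (1.20), 3 of 4 carriers (1.85) and 3 of 5 nuclear regulators (1.18). Of all genes 36.6% were higher and 7.11% lower there, with a median of 0.56. The ribosomal gene Mrpl12 differed by 5.71, the citrate cycle gene Idh3a by 5.36 and the complex I assembly factor Ndufaf4 by 4.81. Against the dorsal bud the lists parted. The ribosome list had 49 of 77 higher and 6 lower (median 1.50), while assembly factors had 11 of 40 higher and 4 lower (-0.04), the upkeep list 4 higher and 4 lower of 16 (-0.70), and the regulators 0 higher and 3 lower of 5 (-1.0). In that comparison 13.6% of all genes were higher and 48.3% lower. Cycs, the somatic cytochrome c, was 9.20 ± 0.75 against 4.84 ± 2.34, and the adenine nucleotide carrier Slc25a5 10.72 ± 2.00 against 7.21 ± 2.99. Pprc1, a coactivator of nuclear respiratory genes, was lower by 1.74, the mitochondrial RNA polymerase Polrmt by 1.70 and the factor Nrf1 by 1.22, where all genes had a median of -0.95.

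In the ventral bud the ribosome list had 2 of 77 higher and 26 lower, and the assembly factors 1 and 15 of 40. The citrate cycle list had 0 and 6 of 13. Their medians were -0.73, -0.78 and -0.89, near that of all genes, whereas the nuclear members had 0.18. Of all genes 3.70% were higher and 38.4% lower there, with a median of -0.73. Citrate synthase (Cs) was lower by 2.47. In the foregut 48 of 77 ribosome genes and 10 of 13 citrate cycle genes were higher, with medians of 1.21 and 1.26. The nuclear members had 0.61 there, and 30.9% of all genes were higher with a median of 0.55. Plate 2B against plate 2A gave 54 of 77 and 10 of 13 higher, with medians of 1.25 and 1.65, where 29% of all genes were higher with a median of 0.48. Col1a1-low cells had 48 of 77 ribosome genes lower than the dorsal bud and 1 higher (median -1.32), near the 51.2% of all genes that were lower with a median of -1.03. The upkeep list had 11 of 16 lower (-1.36), among them Tfam, which packs mitochondrial DNA, by 3.31.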

How the data were processed

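Single cells were sorted into plates and sequenced with Smart-seq2, per the labels' protocols; STAR 2.5.3, Cufflinks, Cuffdiff 2.2.1 and GRCm38 are named in the submitters' processing notes. What counted the reads, with which gene models and scaling, was not given in the sources used here. For each gene and cell the authors deposited a log2 value, empty where no read was found (76.7% of entries, set to 0). Values equal log2(reads / factor + 1): 1647490 of 1647530 values came out within 0.01 of whole reads with 1 factor per cell. Of 452 cells processed, 346 were analysed, with 510222 to 3431730 reads each. Differences are of mean levels over cells, without tests, since the labels name no animal; a count test was not run for the same reason. Genes with a mean of at least 1 over all cells were compared, and a difference of 1 counted as higher or lower. The named genes are all mitochondrial members, the 4 highest and 4 lowest nuclear members of each comparison, complex II, tissue isoforms, the 5 nuclear members highest per kilobase, and up to 3 genes per pathway list. Some genes under this rule are not reported here. Other members named were chosen after their values were seen. The members and lists were chosen with earlier results of these data known. Alternatives were 3 scalings, thinning to 500000 reads, pseudocounts of 0.1 and 10, ratios of linear means, single dorsal plates, other filters, members and thresholds. Leaving out cells by cardiac, epithelial or mesenchyme markers was chosen after seeing the data. Gene models were GENCODE M21, copies were sought with blastn 2.17.0, and upstream sequences came from RefSeq (GRCm38.p6). Computation used Python 3.11.15, numpy 2.4.6, pandas 2.3.3, scipy 1.17.1 and matplotlib 3.10.9; the scripts were tested on simulated data.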

Additional observations from a re-analysis of the deposited data

How the results depend on the processing

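Over all alternatives run, 159 of 174 list medians, 125 of 174 counts of members and 1145 of 1303 single-gene differences moved by less than the limits set for them, and 3 single genes reversed; the cause was not tested. Afp-high liver against dorsal bud depended on scaling. Its nuclear median of 1.27 was 0.62 with total reads, 0.65 without mitochondrial reads, 0.22 with median-of-ratios factors and 0.62 with thinned reads. Its mitochondrial median of 2.90 was 2.2, 2.23, 1.73 and 2.2 under the same settings. That median was 3.53 against plate 2A alone and 2.10 against plate 2B alone. With median-of-ratios factors 23 nuclear members were higher in place of 42, and 6.74% of all genes in place of 13.6%. For Col1a1-high against Col1a1-low cells the 16 lower members (25% of all genes) were 26 with median-of-ratios factors (27.6%) and 27 with a pseudocount of 0.1 (33.9%). They were 3 with a pseudocount of 10 and 1 with linear means (15.8%). With a pseudocount of 10 the Afp-high against Afp-low nuclear median of 1.61 was 0.96, the 11 lower members of the ventral bud were 2, the 19 higher of the foregut 5, the 17 lower of Col1a1-low against dorsal cells 7, and the 24 higher of plate 2B 5. With the ratio of linear means these were 0.61 (19 members higher in place of 49), 0, 2, 3 and 3. With that ratio 30.1% of all genes were higher in Afp-high against Afp-low liver, 16% lower in the ventral bud and 7.10% higher in the foregut. In Col1a1-low against dorsal cells 29.6% were lower, and on plate 2B 8.94% were higher. For a pseudocount of 10 the shares of all genes were not counted. Atp5d (0.023) and Sdhc (0.37) in Afp-high liver and Sdha (0.051) in the ventral bud reversed with linear means. Against plate 2A alone the ventral bud had 7 lower (31.2% of all genes) and the foregut 36 higher (41.4%). The mitochondrial median was then 1.09 in the foregut (0.46 with both plates) and 1.52 in Col1a1-low cells (0.94). Against plate 2B alone the foregut had 2 higher (19% of all genes) and the ventral bud a mitochondrial median of -0.75 (-0.13). Against dorsal cells with epithelial and without mesenchyme markers, a setting chosen after seeing the data, the ventral bud had 7 lower (32% of all genes). The spread used for list medians was the SD of the values of the dorsal plates, 0.49 for nuclear and 0.52 for mitochondrial members. A minimum of 2000 genes removed no cell, so its values could not move, and they are counted in the totals above as unmoved. No paired analysis was possible because the result comes from no test. Genes near the detection limit are limited by how many cells had a read.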
